A study of Mus musculus with 2 samples.

Results

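A set of 9 genes of the interferon response were followed across single cells of mouse small intestinal organoids: Cxcl10, Isg15, Ifit1, Ifit3, Oasl2, Bst2, Irf7, Ifitm2 and Ifitm3. They were taken by name from the 31053 genes of the deposited matrix, all 9 were found, and all 9 passed the minimum of 10 unique molecular identifiers (UMIs, each standing for 1 captured RNA molecule) over all kept cells. Organoids are epithelial structures that self-organise in culture from intestinal stem cells and are grown without immune or connective tissue. The study lists 1 control and 1 melatonin-treated sample, each a pool of cells from 3 organoid lines taken on culture day 3. Strain, sex, age, genotype and the melatonin dose were not given in the sources used here.

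The deposited files of the control and the melatonin sample were the same, 3 of 3 in pairs. There is therefore 1 matrix, whose barcodes end in 1 or 2, and nothing in the labels or headers ties either ending to a treatment. Values are reported for suffix 1 and suffix 2, the direction of their ratio is arbitrary, and no statement about melatonin is made. With 1 pool of cells per suffix there is no replicate and no test, so intervals cover counting error only. A barcode counted as a cell when it showed 500 or more genes and 1000 or more UMIs, of which no more than 20% came from mitochondrial genes, which left 2300 cells of suffix 1 and 1766 of suffix 2. The kept cells held 61628537 and 51111519 UMIs, with medians of 29872 and 28759 UMIs per cell. Among all barcodes 29 sequences occurred with both suffixes, and among kept cells 0 did. The 4 epithelial markers summed to 2518 CPM (UMIs per 1000000 UMIs of the same cells) in suffix 1 and 2962 CPM in suffix 2. The 9 immune markers summed to 1.90 and 1.27 CPM, with 2 and 3 of them at 0, and the 6 mesenchymal markers to 0.211 and 0.137 CPM, with 3 at 0 in each. The 4 endothelial markers summed to 4.93 and 3.23 CPM, with 1 and 3 at 0, and the highest of them, Pecam1, made up 4.90 and 3.23 CPM.

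Interferons are secreted proteins that signal through paired cell surface receptors and Jak kinases to transcription factors, which bind DNA elements in the promoters of interferon-stimulated genes. The proteins made from those genes act against viruses at many steps, from entry to release. In the gut epithelium type III interferon is known as the main antiviral signal. Cxcl10, a chemokine that attracts T cells through the receptor Cxcr3, is a classical target of interferon that also responds to the transcription factor NF-kB in inflamed epithelium.

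The sequences before the start sites show how the promoters of the members differ, and 5 are printed here. Isg15, Ifit1, Ifit3 and Bst2 hold 2 or more matches to the interferon-stimulated response element (ISRE), and Cxcl10 holds 1 together with matches to the kB consensus, the motif bound by NF-kB. They come from RefSeq on build GRCm38.p6, run 5′ to 3′ in the direction of the gene, and end before the annotated start. Capitals mark ISRE matches and, in Cxcl10 and Bst2, matches to the kB consensus. The authors' own build is not given in the sources used here.
Cxcl10, chr5:92348890-92349104, minus strand: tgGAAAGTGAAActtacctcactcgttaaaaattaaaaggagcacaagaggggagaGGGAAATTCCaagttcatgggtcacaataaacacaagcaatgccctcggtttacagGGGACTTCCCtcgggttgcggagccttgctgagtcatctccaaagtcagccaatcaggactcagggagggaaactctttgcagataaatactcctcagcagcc
Isg15, chr4:156200819-156201033, minus strand: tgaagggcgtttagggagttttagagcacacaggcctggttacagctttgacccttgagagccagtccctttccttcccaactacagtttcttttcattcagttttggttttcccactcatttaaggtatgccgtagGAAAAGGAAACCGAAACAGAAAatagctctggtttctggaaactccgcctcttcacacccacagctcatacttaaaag
Ifit1, chr19:34640656-34640870, plus strand: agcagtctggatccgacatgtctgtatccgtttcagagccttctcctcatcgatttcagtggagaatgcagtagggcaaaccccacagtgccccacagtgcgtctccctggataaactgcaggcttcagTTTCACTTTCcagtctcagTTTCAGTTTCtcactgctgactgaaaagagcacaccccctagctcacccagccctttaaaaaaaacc
Ifit3, chr19:34583314-34583528, plus strand: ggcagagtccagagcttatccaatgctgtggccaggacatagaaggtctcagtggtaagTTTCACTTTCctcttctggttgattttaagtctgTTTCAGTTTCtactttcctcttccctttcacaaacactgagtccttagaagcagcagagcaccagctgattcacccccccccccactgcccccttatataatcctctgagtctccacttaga
Bst2, chr8:71537473-71537687, minus strand: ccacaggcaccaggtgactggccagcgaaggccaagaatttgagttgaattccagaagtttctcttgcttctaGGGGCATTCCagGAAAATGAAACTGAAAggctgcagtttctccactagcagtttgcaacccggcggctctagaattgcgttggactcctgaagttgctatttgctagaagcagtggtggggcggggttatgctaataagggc

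The ISRE was searched as GAAANNGAAA on both strands in the 250 bases before each start, and 2.98% of 32841 promoters held a match. Isg15 held 3 overlapping matches, Ifit1, Ifit3 and Bst2 held 2 each, Cxcl10 and Ifitm2 held 1 each, and Oasl2, Irf7 and Ifitm3 held 0 in this window. In Ifit1 and Ifit3 the matches read on the opposite strand, as TTTC repeats. The kB consensus, found in 3.9% of all promoters, had 2 matches in Cxcl10, at 159 to 150 and 103 to 94 bases before the start, and 1 in Bst2. The AP-1 motif TGANTCA, bound by Fos and Jun proteins and present in 6.75% of promoters, matched once each in Cxcl10, Ifit3 and Ifitm3. The interferon gamma element TTCNNNGAA, present in 7.02% of promoters, matched once, in Bst2, where it overlaps both the ISRE and the kB matches. These are letter matches and say nothing of binding.

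Near the head of the pathway, RNA of the interferons themselves was almost undetected. Of 7 interferon genes in the list, 6 (Ifnb1, Ifna2, Ifna4, Ifnl2, Ifnl3 and Ifng) had 0 UMIs in all 4066 cells, and Ifnk had 1 UMI in each suffix. A count of 0 allows a level of up to 0.0487 CPM in suffix 1 and 0.0587 CPM in suffix 2. The receptors and kinases were all detected. Ifngr1 and Ifngr2, the chains of the interferon gamma receptor, stood at 63.2 and 41.7 CPM in suffix 1 and 65.6 and 45.2 CPM in suffix 2. The type I receptor chains Ifnar1 and Ifnar2 stood at 10.1 and 11.9 CPM in suffix 1 and 11.0 and 12.9 CPM in suffix 2. Ifnlr1, the chain specific to type III interferon, was lower, at 1.49 and 2.66 CPM.

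The 9 members spanned more than 3 orders of magnitude in UMIs. Because each molecule is read once near its 3′ end, CPM is compared here without a length term. Ifitm2, a membrane protein that blocks virus entry, was the highest at 327 CPM (95% interval 322 to 331) in suffix 1 and 259 CPM (255 to 264) in suffix 2. Bst2, also called tetherin because it holds budding virus at the cell surface, followed at 49.2 CPM (47.4 to 50.9) and 50.7 CPM (48.8 to 52.7). Cxcl10 was next at 26.6 CPM (25.4 to 27.9) and 35.6 CPM (34.0 to 37.3). Ifitm3, a close relative of Ifitm2 with the same role, stood at 19.7 CPM (18.6 to 20.8) and 6.55 CPM (5.87 to 7.30). Irf7, the factor that amplifies type I interferon production, stood at 3.89 CPM (3.42 to 4.42) and 6.50 CPM (5.82 to 7.23). In suffix 2 the intervals of Irf7 and Ifitm3 overlapped, so their order is not set there.

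The 4 remaining members are widely used as markers of an active interferon response, and all were rare. Isg15, a ubiquitin-like protein attached to other proteins, gave 75 UMIs (1.22 CPM, 0.957 to 1.53) in suffix 1 and 46 UMIs (0.900 CPM, 0.659 to 1.20) in suffix 2. Ifit1, which binds foreign RNA caps, gave 34 UMIs (0.552 CPM, 0.382 to 0.771) and 71 UMIs (1.39 CPM, 1.08 to 1.75). Oasl2, of the oligoadenylate synthetase family, gave 24 UMIs (0.389 CPM) and 27 UMIs (0.528 CPM). Ifit3, a partner of Ifit1, gave 6 UMIs (0.0974 CPM) and 11 UMIs (0.215 CPM). At least 1 UMI of these 4 genes was found in 87 cells (3.78%) of suffix 1 and 95 cells (5.38%) of suffix 2, at least 2 of the 4 genes in 7 and 12 cells, and at least 3 in 0 cells of either suffix. Each gene was seen in few cells, and no number expected from separate occurrence was computed. Whether these RNAs occur together was therefore not tested. Among the last 400 bases of the Ifit3 transcript, 16.7% of the 60-base stretches also occur in Ifit3b, so Ifit3 reads may be split or lost between the copies. The same share was 20.2% for Ifitm2, against transcripts annotated as predicted genes, 7.04% for Ifitm3, against Ifitm1 and a predicted gene, and 0 for the other 6 members.

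**Figure D1:**
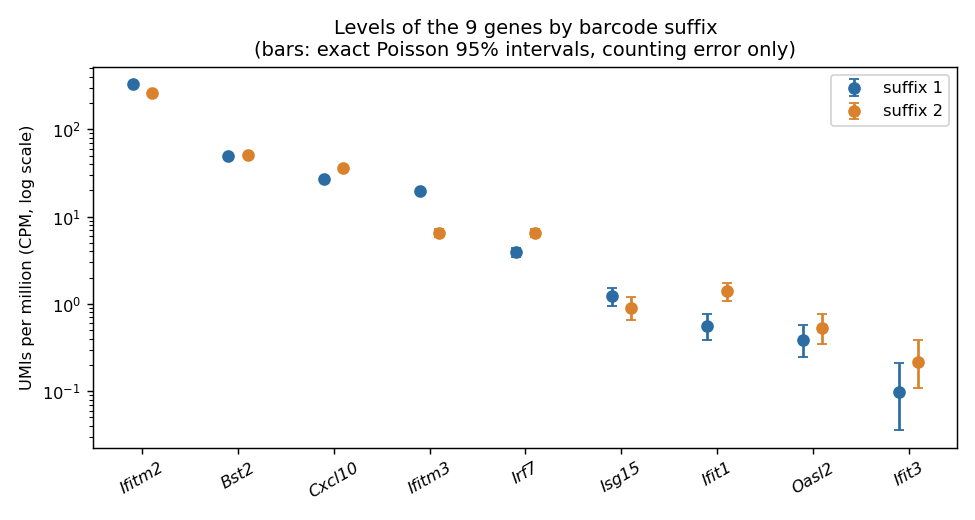
Level of each of the 9 genes in CPM (vertical axis, log scale) for suffix 1 and suffix 2, with exact Poisson 95% intervals as bars. Ifitm2 lies above 250 CPM and the 4 genes Isg15, Ifit1, Oasl2 and Ifit3 lie below 2 CPM in both, while Ifitm3 shows the widest gap between the suffixes.

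Between the suffixes, a gene was called when it differed at least 1.5-fold on the log2(CPM + 1) scale with 95% intervals apart. By this rule 2 of 9 members were higher in suffix 2 and 1 was lower, against 2.46% and 1.4% of 15474 genes. The median log2 ratio of suffix 2 over suffix 1 was 0.14 for the members and 0.03 for all genes. Ifitm3 had a log2 ratio of -1.45 (-1.61 to -1.30), Ifit1 of 0.62 (0.35 to 0.87) and Irf7 of 0.61 (0.41 to 0.82). Cxcl10 (0.41, 0.31 to 0.50) and Ifitm2 (-0.33, -0.36 to -0.30) had intervals apart but stayed under 1.5-fold. Bst2 had a log2 ratio of 0.04 (-0.03 to 0.12), and Isg15, Ifit3 and Oasl2 had intervals that held 0.

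The suffixes also differed in their mix of cell classes, and its part in these differences was not tested beyond the weighting given here. When the suffix 2 levels were weighted to the class shares of suffix 1 UMIs, the log2 ratio of Irf7 went from 0.61 to 0.22 and that of Ifit1 from 0.62 to 0.18, while that of Ifitm3 went from -1.45 to -1.57. Cxcl10 went from 0.41 to 0.26 and Ifitm2 from -0.33 to -0.24. Within the enteroendocrine, enterocyte and cycling gates described below, the intervals of Irf7 in the 2 suffixes overlapped. The 1 highest Ifitm3 cell of suffix 2 held 85 of its 335 UMIs, and without that cell Ifitm3 stood at 4.90 CPM. These weights were chosen after the values were seen.

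In the wider list of interferon effectors, 36 of 45 matched genes had at least 10 UMIs, 3 were called higher in suffix 2 and 1 lower, and the median log2 ratio was 0.06. Beside this and each list below, 2.46% of all 15474 genes were called higher and 1.4% lower, with a median of 0.03. The higher ones were Ifit1, Oasl1 (4.46 and 7.24 CPM) and Ifi27l2b (274 and 431 CPM), and the lower one was Ifitm3. Genes that interferon induces strongly elsewhere differed in whether they were detected. Mx1 gave 5 and 3 UMIs, Gbp2 gave 1 and 0, and Iigp1 and Tgtp1 gave 0 in both. Rsad2, also called viperin, gave 196 and 137 UMIs (3.18 and 2.68 CPM), Irgm1, an interferon-induced GTPase, 355 and 259 UMIs (5.76 and 5.07 CPM), and Ifih1, a sensor of double-stranded RNA, 455 and 391 UMIs (7.38 and 7.65 CPM). Of 8 transcription factors, Irf7 was the 1 called. Of 9 receptors and kinases, 8 sensors and 4 feedback genes with enough UMIs, 0 were called in either direction. Among 14 chemokines and NF-kB targets, 4 were called higher and 0 lower, with a median of 0.29. The largest ratios were those of Cxcl5 (0.130 and 2.19 CPM), Cxcl16 (9.70 and 25.1 CPM) and Cxcl2 (1.28 and 4.13 CPM), and Cxcl5 came from 5 and 20 cells. Among 12 stress genes, 1 was called higher, Atf3, with a median of 0.30.

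Cells were then placed in classes by summed marker UMIs per 10000. The cuts were set from the markers and not from the members, though earlier results of these data were known. Suffix 1 held 271 enteroendocrine-gated, 141 enterocyte-gated, 32 goblet- or Paneth-gated, 1197 G2- and mitosis-gated and 136 S phase-gated cells, and suffix 2 held 277, 198, 15, 603 and 219. A further 100 and 207 cells passed a stem marker cut alone. The 10 leading genes of that class held 0 stem markers and began with Sprr2a3 and Nupr1, so it is called by its cut only, and 708 and 519 cells lay within 1.5-fold of the cut. Near the S phase cut lay 374 and 308 cells, more than that class holds, and near the G2 and mitosis cut 366 and 245. Median depth was 14217 and 14818 UMIs in enteroendocrine-gated cells, 32631 and 34040 in enterocyte-gated cells, and 37182 and 38573 in G2- and mitosis-gated cells.

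Enteroendocrine-gated cells, which make gut hormones, were low in most of the abundant members. Against all other cells, 4 of 9 members were at least 1.5-fold lower with intervals apart in both suffixes, Cxcl10, Bst2, Ifitm2 and Ifitm3, and 1 was higher, Irf7. Over all genes tested, 13.1% were lower and 33.5% higher by the same rule, and since the classes were cut from the same cells these counts describe and test nothing. Bst2 stood at 11.5 CPM (8.39 to 15.3) in enteroendocrine-gated cells of suffix 1 and 8.58 CPM (6.07 to 11.8) in those of suffix 2. In the enterocyte, cycling and stem marker classes it lay between 46.9 and 63.1 CPM, with the intervals of enterocyte-gated (41.9 to 52.4) and S phase-gated cells (57.4 to 69.4) of suffix 2 apart. Among the smaller classes it stood at 17.9 CPM (10.5 to 28.7) in suffix 1 cells that passed more than 1 gate and at 83.8 CPM (69.4 to 100) in the revival gate of suffix 2, and the tuft gate, with 8 cells and 1 cell, gave 7 and 0 UMIs. Cxcl10 stood at 4.24 CPM (2.47 to 6.78) and 3.84 CPM (2.24 to 6.14) in enteroendocrine-gated cells. Irf7 ran the other way, at 14.0 CPM (10.5 to 18.1) and 15.8 CPM (12.3 to 19.96) in enteroendocrine-gated cells against 3.19 and 5.61 CPM in the rest.

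Enterocyte-gated cells, the absorptive cells, were high in Irf7 and Ifit1 and low in both Ifitm genes. In both suffixes 2 of 9 members were called higher and 2 lower than in all other cells, against 9.28% and 19.9% of all genes. Irf7 stood at 13.7 CPM (10.4 to 17.7) and 16.7 CPM (13.7 to 20.1), near its enteroendocrine level, while G2- and mitosis-gated cells held 1.67 CPM (1.31 to 2.11) and 2.18 CPM (1.61 to 2.89). Ifit1 stood at 6.38 CPM (4.20 to 9.28) and 5.76 CPM (4.09 to 7.87), and 79.4% and 54.9% of its UMIs came from enterocyte-gated cells, which held 6.87% and 13.3% of all UMIs. Those Ifit1 UMIs lay in 8 of 141 cells and 24 of 198 cells, and 1 cell of suffix 1 held 13 of its 34 UMIs, without which that class stood at 3.34 CPM. In G2- and mitosis-gated cells, which had about the same depth, Ifit1 gave 2 UMIs in 1197 cells and 3 UMIs in 603 cells.

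Ifitm2 and Ifitm3 were both low in enterocyte-gated as well as enteroendocrine-gated cells. Ifitm2 stood at 133 CPM (123 to 145) and 73.2 CPM (66.9 to 80.0) in enterocyte-gated cells against 354 and 302 CPM in G2- and mitosis-gated cells, and it was found in 96.9% and 94.9% of the latter. Ifitm3 stood at 1.89 and 0.443 CPM in enterocyte-gated cells. In goblet- or Paneth-gated cells it stood at 84.5 CPM (64.1 to 109) in suffix 1 and 28.1 CPM (15.0 to 48.1) in suffix 2, from 5 cells in each. There 1 cell of suffix 1 held 39 of 58 UMIs, and without the highest cell of each suffix the levels were 29.9 CPM (18.0 to 46.8) and 19.4 CPM (8.36 to 38.2), with intervals overlapping. In the 15 and 28 cells of the revival gate it stood at 2.28 CPM (0.0578 to 12.7) and 64.1 CPM (51.6 to 78.7), and in suffix 2 the single highest cell held 85 of the 91 UMIs. Without the highest cell of each suffix these were 0 UMIs and 4.39 CPM (1.61 to 9.56), with intervals overlapping. In the stem marker class Ifitm3 stood at 62.8 CPM (53.2 to 73.6) in suffix 1 and 7.23 CPM (5.16 to 9.84) in suffix 2. In G2- and mitosis-gated cells it stood at 20.7 CPM (19.4 to 22.1) and 6.27 CPM (5.27 to 7.41). Ifitm3 was therefore higher in suffix 1 with intervals apart in the stem marker and the G2 and mitosis classes. The same held in enteroendocrine-gated cells, at 4.48 CPM (2.66 to 7.09) and 0.677 CPM (0.140 to 1.98), and in ungated cells, at 18.3 CPM (12.5 to 25.9) and 2.87 CPM (1.15 to 5.92). In cells that passed more than 1 gate the values were 11.6 CPM (5.79 to 20.8) and 0.874 CPM (0.0221 to 4.87), but 1 cell held 9 of the 11 UMIs of suffix 1. The intervals overlapped in enterocyte-gated cells and in S phase-gated cells, at 10.0 CPM (7.17 to 13.7) and 5.65 CPM (4.02 to 7.72). The goblet or Paneth, revival and more than 1 gate values turn on single cells. Without the highest cell of each class and suffix, the intervals were still apart in the stem marker, G2 and mitosis, enteroendocrine and ungated classes.

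Few cells carried most Ifitm3. Cells with at least 5 Ifitm3 UMIs numbered 81 in suffix 1 and 13 in suffix 2 and held 75.1% and 54.0% of its UMIs, a cut chosen after the values were seen. In suffix 1 these cells held Olfm4, a crypt stem cell gene, at 198 CPM against 18.2 CPM in cells with 0 Ifitm3 UMIs, and Igfbp4 at 91.9 against 5.32 CPM. In suffix 2 the values were 37.3 against 1.22 CPM for Olfm4 and 125 against 4.89 CPM for Igfbp4. Over all kept cells Olfm4 also differed between the suffixes in the direction of Ifitm3, at 33.9 CPM in suffix 1 and 1.94 CPM in suffix 2, and its part in the Ifitm3 difference was not tested. Lgr5, another stem cell gene, differed less, at 129 against 102 CPM in suffix 1. In suffix 2 it stood at 87.5 CPM (66.9 to 112) against 68.6 CPM (66.2 to 71.0), with intervals overlapping. The high cells were deeper, with medians of 46640 and 49169 UMIs against 28240 and 27902.

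**Figure D2:**
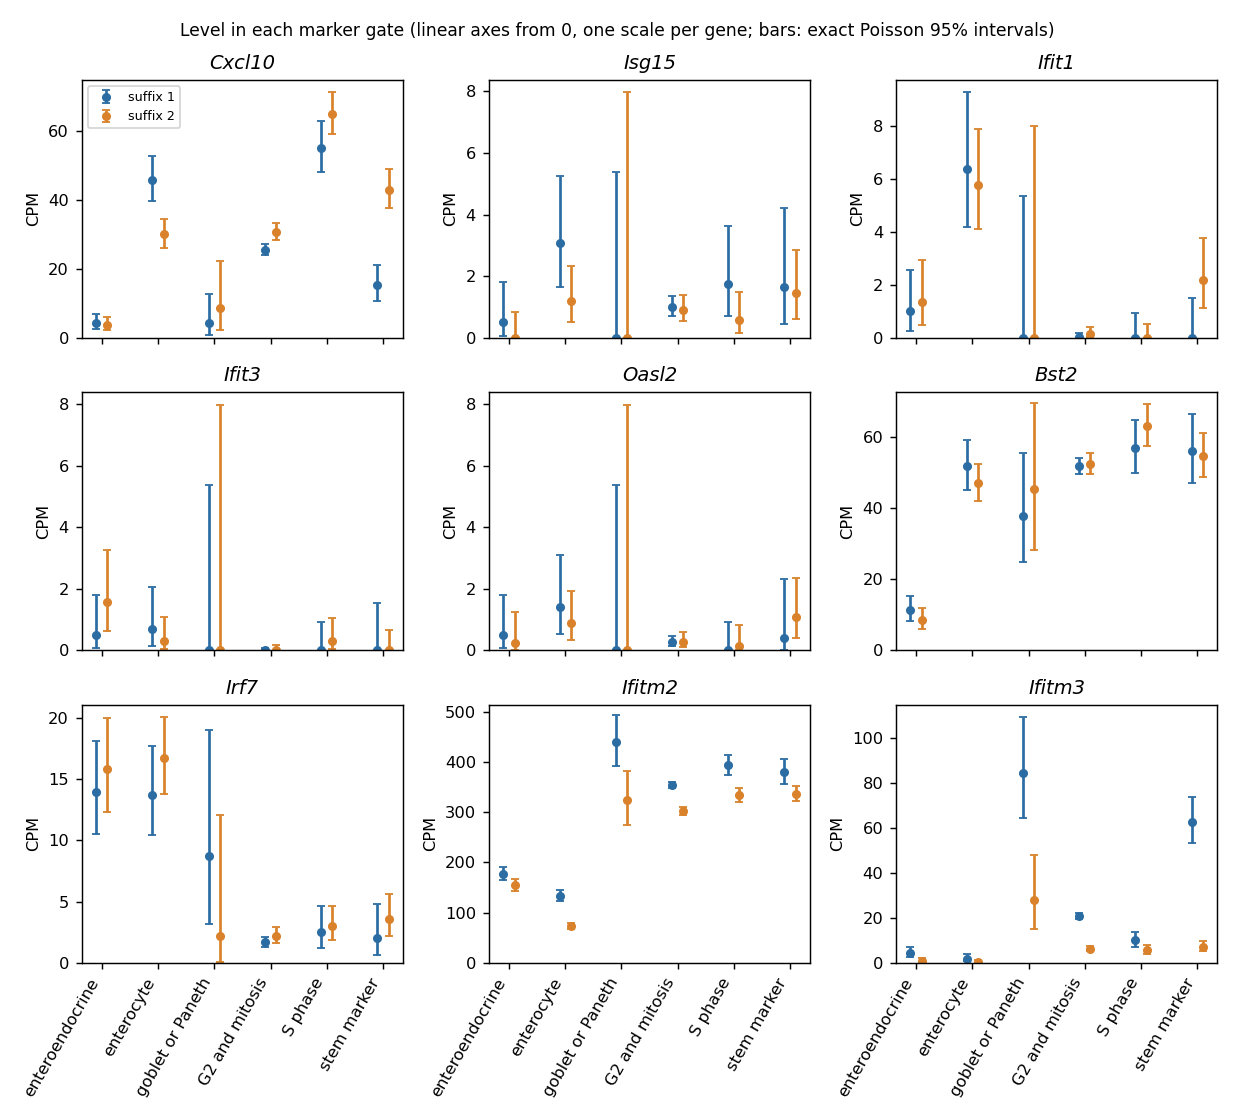
Level of each gene (vertical axes, CPM on linear scales from 0) in 6 marker-gated classes (horizontal axes) for suffix 1 and suffix 2, with exact Poisson 95% intervals. Irf7 is high in the enteroendocrine and enterocyte gates, Bst2 is lowest in the enteroendocrine gate, and Ifitm3 has intervals apart between the suffixes in every class drawn except the enterocyte and S phase gates, and in the goblet or Paneth gate this rests on 1 cell.

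Cxcl10 was held by a small share of cells, most of which were not enteroendocrine. A UMI was found in 376 of 2300 cells (16.3%, 14.9 to 17.9) in suffix 1 and 346 of 1766 cells (19.6%, 17.8 to 21.5) in suffix 2, by exact binomial intervals. With each cell thinned to 2000 UMIs, which left out 265 and 77 shallower cells, the shares were 3.69% (2.91 to 4.60) and 4.54% (3.60 to 5.65). In enteroendocrine-gated cells, the class lowest in Cxcl10 among the larger ones, the thinned shares were 0.778% and 0.446%. Enterocyte-gated cells gave 7.15% and 4.95%, and S phase-gated cells 8.16% and 8.65%. No class was known to lack Cxcl10, so no background share was measured, and the part of free RNA in these shares was not tested.

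By level, Cxcl10 stood at 55.2 CPM (48.1 to 63.0) in suffix 1 and 65.0 CPM (59.1 to 71.3) in suffix 2 in S phase-gated cells. These were above the enteroendocrine, enterocyte, G2 and mitosis, and stem marker classes with intervals apart, except that the intervals of S phase- and enterocyte-gated cells overlapped in suffix 1, and they rest on a class with many cells near its cut. In suffix 2 the small revival class, at 66.9 CPM (54.1 to 81.8), and the cells that passed more than 1 gate, at 73.4 CPM (58.6 to 90.9), had intervals that overlapped that of S phase, while in suffix 1 they held 0 UMIs (a limit of 6.84 CPM) and 4.22 CPM. In suffix 2, 1 cell held 72 of 95 UMIs of the former and 1 cell 48 of 84 UMIs of the latter, and without these cells the levels were 17.8 and 33.1 CPM. Enterocyte-gated cells held 45.8 CPM (39.6 to 52.8) and 30.1 CPM (26.1 to 34.5), so that the suffixes ran in the opposite order there from S phase, where the intervals overlapped. G2- and mitosis-gated cells held 25.6 CPM (24.1 to 27.1) and 30.8 CPM (28.5 to 33.2). In the stem marker class the values were 15.3 CPM (10.8 to 21.1) and 43.0 CPM (37.7 to 48.8), with intervals apart.

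The Cxcl10 RNA was unevenly spread. The 3 highest cells of suffix 1 held 71, 46 and 42 UMIs and those of suffix 2 held 72, 55 and 48, while the median cell held 0. The top 1% of cells held 34.2% of all Cxcl10 UMIs in suffix 1 and 32.2% in suffix 2. For Bst2 the top 1% held 5.94% and 6.75%, and for Ifitm2 4.03% and 4.72%. Ifitm3 was also held by few cells, at 38.0% and 59.7%, with 85 of its 335 UMIs in 1 cell of suffix 2. Genes with few UMIs reach high shares by their low counts alone. Irf7 stood at 21.7% and 18.7% with at most 4 and 6 UMIs in a cell, and Isg15 at 62.7% and 65.2%. Cells with at least 10 Cxcl10 UMIs numbered 48 and 49, or 2.09% and 2.77% of cells, and held 51.2% and 55.0% of the UMIs. Leaving out the 3 highest cells of each suffix left the log2 ratio of Cxcl10 at 0.41.

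**Figure D3:**
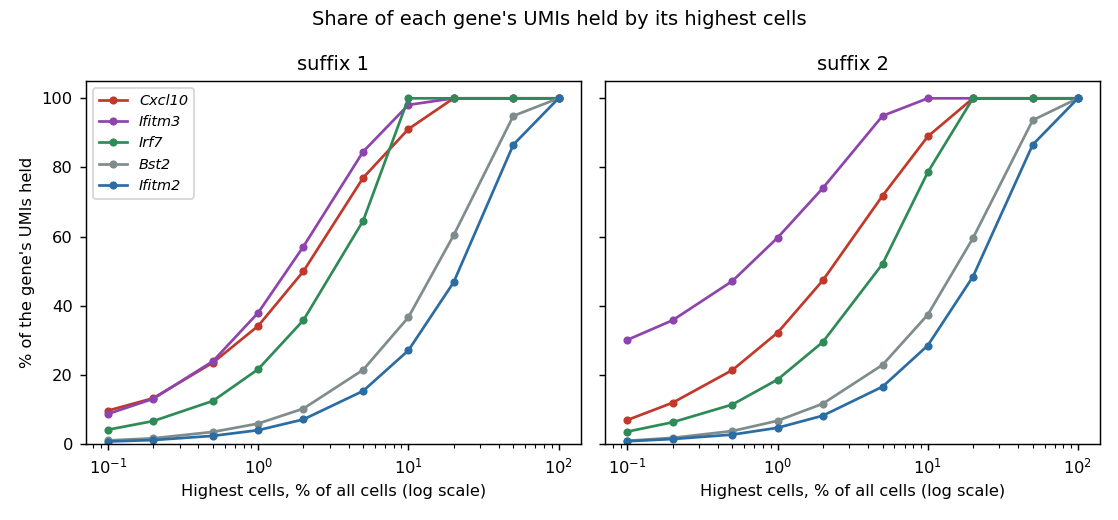
Percent of a gene's UMIs (vertical axis) held by its highest cells, as a percent of all cells (horizontal axis, log scale), for the 5 members with at least 200 UMIs in each suffix. The curves of Cxcl10 and Ifitm3 rise far to the left of those of Bst2 and Ifitm2. That of Irf7, which has fewer UMIs, also lies to the left of those of Bst2 and Ifitm2.

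The cells were next split by their own Cxcl10 count into 0, 1 to 2, 3 to 9 and 10 or more UMIs, which gave 1924, 235, 93 and 48 cells in suffix 1 and 1420, 182, 115 and 49 in suffix 2. Median depth ran from 27612.5 UMIs in the first bin to 34126.5 in the last in suffix 1, and from 26413.5 to 36950 in suffix 2, and the median mitochondrial share was 8.71% to 9.49% in all 8 bins. Enteroendocrine-gated cells made up 259 and 269 cells of the first bin and 0 of the last. The last bin held 33 and 19 G2- and mitosis-gated cells, 7 and 13 S phase-gated cells and 6 and 5 enterocyte-gated cells. From the first bin to the last, the enteroendocrine marker Chgb went from 3517 to 39.5 CPM and from 4299 to 58.1 CPM. The mitosis marker Top2a went from 148 to 242 and from 134 to 257 CPM. The enterocyte marker Fabp1 went from 1318 to 3531 and from 2319 to 4052 CPM. Without the highest cell of each bin, Fabp1 in suffix 2 went from 2252 to 1939 CPM. Immune marker UMIs numbered 92 and 52 in the 1924 and 1420 cells of the first bin. In the 48 and 49 cells of the last they numbered 6 and 4.

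Across these bins Nfkbia, Atf3 and Fos stood higher where Cxcl10 was higher. They are also the 3 genes most like Cxcl10 in the correlations given further on, so the bins show the same relation and not a separate one. Nfkbia, the inhibitor that NF-kB induces to shut itself off, stood at 128, 194, 263 and 366 CPM in suffix 1 and 156, 248, 320 and 416 CPM in suffix 2. Atf3, a stress-induced transcription factor, stood at 193, 288, 447 and 477 CPM in suffix 1 and 331, 417, 472 and 739 CPM in suffix 2. Fos, a subunit of AP-1, went from 407 to 836 CPM and from 487 to 833 CPM between the first and last bins. In each of these 3 genes the intervals of the first and last bins were apart in both suffixes. Ccl20, a chemokine for immature dendritic cells and lymphocytes, stood at 20.02, 27.7, 36.8 and 38.9 CPM in suffix 1 and 24.4, 28.3, 37.0 and 128 CPM in suffix 2, also higher in each successive bin. In the last bin of suffix 2 a single cell held 172 of 267 Ccl20 UMIs, and without it Ccl20 stood at 48.5 CPM (39.3 to 59.3). Tnfaip3, another NF-kB-induced inhibitor, stood at 5.12, 9.56, 14.6 and 22.1 CPM in suffix 1 and 6.63, 16.0, 11.3 and 35.1 CPM in suffix 2, and the last value was 13.3 CPM (8.68 to 19.5) without the highest cell, which held 47 of 73 UMIs. Over all cells the pattern did not hold for every NF-kB target. Tnf, an inflammatory cytokine, stood at 1.11, 1.64, 0.635 and 1.16 CPM in suffix 1 and 1.06, 2.94, 1.44 and 25.5 CPM in suffix 2. Cxcl16, a membrane-bound chemokine, stood at 9.61, 6.54, 17.1 and 13.4 CPM in suffix 1 and 23.5, 16.2, 18.3 and 94.6 CPM in suffix 2, so that for both genes the high value of the last bin was seen in suffix 2 alone. Without the highest cell of that bin, Tnf stood at 4.60 CPM (2.10 to 8.73) and Cxcl16 at 55.2 CPM (45.3 to 66.6). In suffix 1 the 3 to 9 bin of Cxcl16 (12.9 to 22.4) lay above its first bin (8.76 to 10.5) with intervals apart.

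The other members did not all behave alike. Irf7 stood at 3.77 CPM (3.24 to 4.36) in the first bin and 6.97 CPM (3.60 to 12.2) in the last in suffix 1, and at 6.14 CPM (5.39 to 6.97) and 9.13 CPM (5.50 to 14.3) in suffix 2. The intervals of Bst2 and of Ifitm2 overlapped between the first and last bins in both suffixes. Ifit1 stood at 0.635 CPM (0.432 to 0.901) in the first bin and gave 0 UMIs in the last, which allows up to 1.74 CPM, in suffix 1, and stood at 1.08 CPM (0.781 to 1.46) and 7.21 CPM (4.03 to 11.9), in suffix 2. There 1 cell held 10 of the 15 UMIs, and without it the value was 2.44 CPM (0.791 to 5.69), which overlaps the first bin. Isg15 stood at 0.635 CPM (0.432 to 0.901) in the first bin and 6.39 CPM (3.19 to 11.4) in the last in suffix 1, and at 0.645 CPM (0.417 to 0.952) and 2.88 CPM (1.06 to 6.27) in suffix 2, so its intervals were apart in both. Without the highest cell of the last bin Isg15 stood at 4.15 CPM (1.67 to 8.55) and 1.98 CPM (0.539 to 5.06), and the latter overlaps the first bin. Ifitm3 was lower in the last bin than in the first, at 4.07 against 21.3 CPM and 1.44 against 7.69 CPM, with intervals apart.

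**Figure D4:**
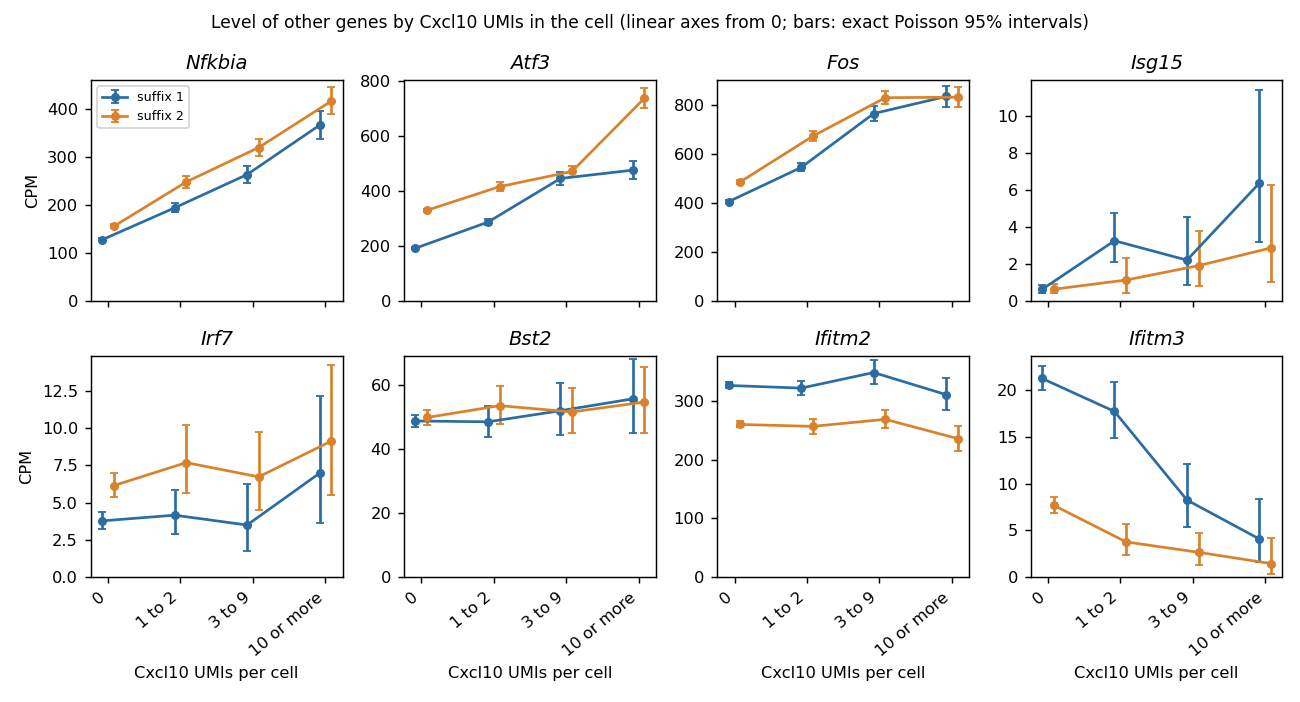
Level of 8 genes (vertical axes, CPM on linear scales from 0) in cells with 0, 1 to 2, 3 to 9 and 10 or more Cxcl10 UMIs (horizontal axis) for suffix 1 and suffix 2, with exact Poisson 95% intervals. Nfkbia, Atf3 and Fos are higher in the last bin than in the first in both suffixes, the intervals of Bst2 and Ifitm2 overlap between the first and last bins, and Ifitm3 is lower in the last.

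Cells with at least 3 Cxcl10 UMIs were also set against cells with 0. Of the 8 other members, Isg15 was called higher in both suffixes (0.635 to 3.69 CPM and 0.645 to 2.24 CPM) and Ifitm3 lower, against 0.438% of 13689 genes called higher and 4.24% called lower. Within G2- and mitosis-gated cells Isg15 stood at 3.98 against 0.504 CPM in suffix 1 (log2 ratio 1.73) and at 1.74 against 0.764 CPM in suffix 2 (0.63, intervals overlapping), so that it was called in suffix 1 alone. Without the highest cell of each group, the suffix 2 values there were 0.443 against 0.530 CPM (log2 ratio -0.08). After thinning to 5000 UMIs the groups were cells with 1 or more Cxcl10 UMIs and cells with 0. They held 144 and 1771 cells in suffix 1 and 146 and 1471 in suffix 2, with 385 and 149 cells left out. The log2 ratios of Isg15 were then 0.64 and 1.26, and it was no longer called in both suffixes. Since the cut and the cells also differ, the part of depth in this was not tested. Of 31 interferon effectors with enough UMIs, 1 was called higher (Isg15) and 3 lower (Isg20, Rsad2 and Ifitm3), with median log2 ratios of -0.01 and -0.10 beside -0.10 and -0.10 for all genes. None of 8 transcription factors was called, 0 of 9 receptors and kinases and 0 of 8 sensors. Of 13 chemokines and NF-kB targets, 6 were called higher and 0 lower, Cxcl2, Cxcl9, Cxcl16, Ccl20, Nfkbia and Tnfaip3, with medians of 0.66 and 0.86. Of 12 stress genes, 4 were called higher and 0 lower, Fos, Fosb, Atf3 and Hspa1a, with medians of 0.75 and 0.49. When the highest cell of each gene was left out of each group and suffix, an alternative chosen after the values were seen, the calls of Cxcl9 and Cxcl16 were lost and the other calls named here were kept.

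Since enteroendocrine-gated cells were nearly absent from the high bins, the same comparison was made within G2- and mitosis-gated cells, a choice made after the values were seen. There 0.846% of 11821 genes were called higher in both suffixes and 0.0677% lower. Of 11 chemokines and NF-kB targets, 5 were higher and 0 lower, namely Cxcl2, Cxcl16, Ccl20, Nfkbia and Tnfaip3. Of 12 stress genes, 10 were higher and 0 lower, of which Dnajb1 was no longer called without the highest cells. Cxcl16 stayed called without them, at 13.2 against 2.91 CPM in suffix 1 and 14.1 against 6.48 CPM in suffix 2. Nfkbia stood at 292 against 120 CPM in suffix 1 and 295 against 106 CPM in suffix 2. Tnfaip3 stood at 18.8 against 4.12 CPM and 13.0 against 3.70 CPM, and Atf3 at 435 against 117 CPM and 617 against 179 CPM. Of 24 interferon effectors, 0 were higher and 1, Ifitm3, was lower, at 7.40 against 22.8 CPM and 2.17 against 6.93 CPM. Irf7 was called higher in suffix 1 alone, at 3.70 CPM (1.97 to 6.32) against 1.33 CPM (0.973 to 1.79). In suffix 2 Irf7 stood at 3.04 CPM (1.22 to 6.27) against 1.76 CPM (1.19 to 2.52), with intervals overlapping.

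Across single cells, the 36 pairs of members had Pearson correlations of log counts per 10000 from -0.14 to 0.21 in suffix 1 and -0.16 to 0.22 in suffix 2. The highest was Bst2 with Ifitm2, 0.21 and 0.22, and the lowest Irf7 with Ifitm2, -0.14 and -0.16. Cxcl10 with each of the 8 others lay between -0.02 and 0.09 in suffix 1 and between -0.04 and 0.10 in suffix 2. These points share a library and differ in depth and class, and such weak values in sparse counts are a description only. Among 7118 other genes with at least 10 CPM in each suffix, the 5 most like Cxcl10 by the lower of the 2 correlations were Nfkbia (0.25 and 0.28), Fos (0.20 and 0.20), Atf3 (0.22 and 0.19), Tcim (0.19 and 0.21) and Pmaip1 (0.18 and 0.18). For Isg15 the 5 were Anxa2, Gapdh, Lgals3, Aldh1a1 and Mttp, none above 0.09 in either suffix. The same search over the other members was added after the values were seen. The genes most like Ifit1 included the absorptive cell genes Guca2b (0.20 and 0.22), Leap2 (0.20 and 0.22) and Apoc3 (0.19 and 0.20), that most like Irf7 was H2-Q2 (0.24 and 0.26), and the 5 most like Ifitm2 were ribosomal protein genes, led by Rpl23 (0.49 and 0.55).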

How the data were processed

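The deposited matrix holds raw UMI counts, whole numbers that were not scaled, from a droplet 3′ RNA library. Per the submitters' processing notes, Cell Ranger 3.1.0, STAR 2.7.3a and bcl2fastq 2.20.0 were used, and the genome build is not given in the sources used here. Counts were summed over kept cells per suffix or class and divided by the summed UMIs (CPM). Intervals are exact Poisson for levels and exact Clopper-Pearson for shares, at 95%, and ratios are log2 of CPM + 1. With 1 pool per suffix there is no test. No count model was fitted, and no doublet caller was run: cells passing more than 1 lineage gate form a class of their own, and an alternative leaves out these and the top 5% of cells by UMIs in each suffix.

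Lineage gates asked for at least 5 marker UMIs, a minimum added after shallow cells were seen to pass on 1 UMI, and, per 10000 UMIs, 20 (enteroendocrine), 60 (enterocyte), 50 (goblet or Paneth), 5 (revival) or 5 (tuft), and the remaining cells were placed by G2 and mitosis (8), S phase (4) and stem (4) markers. Shares with a UMI were also given as the value expected after thinning each cell to 2000 UMIs. Likeness was the lower of the 2 within-suffix correlations with a member. The genes named are the members, at most 3 called genes per list with the largest ratios, those needed for a role, and the likeness genes, apart from those said to be chosen after their values were seen. Also chosen so were the called genes beyond 3 per list in Cxcl10-high cells, Tnf, the interferon effectors given for their detection, Pecam1, and the stem cell genes set beside Ifitm3. So were the cell class markers set beside the Cxcl10 bins and the removed barcodes. The ratio script was tested on simulated data. The members, lists and cuts were chosen with earlier results of these data known. Mx2 and Cxcl11 were not analysed here, and 1 item is not reported here. Python 3.11.15 was used with numpy 2.4.6, scipy 1.17.1, pandas 2.3.3 and matplotlib 3.10.9.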

Additional observations from a re-analysis of the deposited data

Results flagged for a closer look

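The barcodes removed by the filters, 10064 of suffix 1 and 7676 of suffix 2, most of them rich in mitochondrial RNA, also held UMIs of all 9 members, more than the 3 counts that a count of 0 allows. Summed over both suffixes these were 1530 UMIs of Cxcl10, 59 of Isg15, 71 of Ifit1, 6 of Ifit3, 36 of Oasl2, 1371 of Bst2, 532 of Irf7, 8152 of Ifitm2 and 427 of Ifitm3. Per 1000000 non-mitochondrial UMIs, Irf7 stood at 11.4 (9.97 to 13.0) and 20.6 (18.3 to 23.0) in removed barcodes of suffix 1 and suffix 2 against 4.32 (3.79 to 4.90) and 7.20 (6.44 to 8.01) in kept cells. Cxcl10 stood at 39.3 (36.5 to 42.1) and 50.9 (47.3 to 54.6) against 29.5 (28.1 to 31.0) and 39.5 (37.7 to 41.3). In suffix 1 it stood at 47.6 (43.4 to 51.9) in removed barcodes with 20 to 50% mitochondrial UMIs. In those over 50% it stood at 29.7 (26.3 to 33.5), near the kept cells. In suffix 2 these 2 groups stood at 50.7 and 50.6. Bst2 was lower in removed barcodes, at 43.2 (40.3 to 46.2) and 35.3 (32.4 to 38.4) against 54.5 (52.6 to 56.5) and 56.2 (54.0 to 58.4). The enteroendocrine marker Chgb stood at 984 and 910 in removed barcodes against 3280 and 3704 in kept cells. Removed barcodes had medians of 3417.5 and 3336.5 UMIs. The part of damage, free RNA or cell mix in these values was not tested.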

How the results depend on the processing

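No paired analysis was possible because each sample is 1 pool and both hold the same matrix. Of 108 recomputed member ratios between the suffixes, 85 stayed within their intervals, 23 moved out of them and 0 of the called ones changed sign. Moved values also made up 81 of 396 class levels, 21 of 66 ratios in Cxcl10-high cells, 8 of 18 shares held by the top 3 cells and 29 of 36 shares of cells with a UMI, 18 of which were those without thinning. Ifitm3 lay between -1.85 and -0.84, Irf7 between 0.22 and 0.72, Ifit1 between 0.11 and 1.19 and Cxcl10 between 0.06 and 0.45. The 2 members called higher in suffix 2 became 1 with no mitochondrial limit, with a limit of 10%, with the mean of each cell's CPM, with scaling to the median ratio and without likely doublets. They became 0 with a pseudocount of 10 CPM, and 0 in cells of no lineage gate, an alternative added after seeing the data. With suffix 2 weighted to the class shares of suffix 1, their log2 ratios of 0.22 and 0.18 were both under 1.5-fold. The median ratio of the members was 0.36 with a pseudocount of 0.1 CPM. The 1 other member called higher in Cxcl10-high cells became 0 after thinning to 5000 UMIs, with a cut of 1 or more Cxcl10 UMIs in place of 3. It also became 0 within G2- and mitosis-gated cells. There, in suffix 2, Ifit1 changed sign to -0.16 and Oasl2 to -0.23, each with fewer than 10 UMIs in all. The other causes were not tested. Counts of members called in the enteroendocrine and enterocyte gates were equal with cuts halved or doubled, and with no mitochondrial limit 3 members instead of 4 were lower in the enteroendocrine gate and 3 instead of 2 higher in the enterocyte gate. Depth limits the 4 rare members, whose thinned shares over all kept cells lie below 0.3%.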
